A study of Mus musculus with 30 samples.

Results

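The genes described here are the 5 NF-kB subunits *Nfkb1*, *Nfkb2*, *Rel*, *Rela* and *Relb*, and the 5 inhibitors *Nfkbia*, *Nfkbie*, *Nfkbiz*, *Nfkbid* and *Tnfaip3*. They were taken by name, and each matched 1 Ensembl gene among the 43629 of the count table, so that 10 of 43629 genes are followed. All 10 passed the filter on low counts in every comparison. RNA was sequenced from bone marrow-derived dendritic cells (BMDCs), which are grown from mouse bone marrow in GM-CSF, of 5 cultures labelled WT and 5 labelled Cacnb3-/-. CACNB3 is the β3 subunit of voltage-gated calcium channels, and per the study's methods the WT mice were C57BL/6J and the Cacnb3-/- mice C57BL/6N, adult and of both sexes, so that genotype and substrain cannot be told apart. Each culture gave 3 libraries, whose names end in ctrl, 0p5h and 24h. The labels' protocol gives a culture of 6 days and 500 µM ATP for 30 min, with harvest directly or after 24 h, and no agent other than ATP or its vehicle separates the groups.

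The labels conflict on which cells saw ATP. Libraries whose names end in ctrl carry a treatment field of 30 min ATP, and those ending in 0p5h carry vehicle, while name and field match for 24h. Libraries were grouped by name. If the treatment field is right instead, each change given from ctrl to 0p5h runs the other way, from ATP to vehicle, and the comparison of 0p5h with 24h becomes one of vehicle with the late harvest. The labels do not say whether a culture number marks 1 animal, so p-values measure the spread between these cultures. With a replicate block for culture number they measure the spread of the changes within cultures instead.

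NF-kB is a family of dimeric transcription factors. *Rela*, *Rel* and *Relb* encode subunits with a transactivation domain, while *Nfkb1* and *Nfkb2* encode the p105 and p100 precursors of p50 and p52. In resting cells the dimers are held in the cytoplasm by IkB proteins, and kinases that are active downstream of Toll-like and TNF receptors mark these proteins for degradation. Several inhibitors are themselves NF-kB target genes and close a feedback loop, and in dendritic cells the pathway is known for its part in maturation and cytokine expression.

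Sequencing depth ranged from 8237393 to 32164225 counts per library, with the lowest median, 11986891, in Cacnb3-/- 24h. At this depth the least counted member, *Nfkbiz*, had at least 192 counts in every library. *Cacnb3* was counted in all libraries, with 1260 ± 112 CPM (counts scaled to library size) in WT ctrl and 1028 ± 196 CPM in ctrl libraries labelled Cacnb3-/- (SD, n = 5), so its level does not check the genotype labels, and genotype is given as labelled. All 10 dendritic cell markers of a list (*Itgax*, *Cd74*, *Flt3* and others) were at a median of at least 1 CPM in each group. The summed CPM of 6 lymphocyte markers never exceeded 2.53, and that of 4 erythroid and mast cell markers never exceeded 5.53.

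Of the 7 members with a promoter window in RefSeq (GRCm38.p6, the build of the counts), 6 hold the 10-base NF-kB consensus on either strand, as background to the feedback loop. A window spans 250 bases before to 50 bases after a transcription start, and a match was found in 8 of the 12 windows of these members, against 8.46% of all 32851 windows. The *Nfkb2* windows at chr19:46305445-46305744 and chr19:46305680-46305979 overlap and share a match, so the windows are not independent. The member without a match is *Rela*. *Nfkb1*, *Relb* and *Nfkbiz* had no window to read. The bases before the start are given for *Nfkb2*, a subunit lower in cultures labelled Cacnb3-/- (chr19:46304487-46304736, plus strand), for *Nfkbia*, the member with the highest level (chr12:55492648-55492897, minus strand), and for *Tnfaip3*, which was high in 0p5h (chr10:19015411-19015547, minus strand, up to the nearest exon in the count table's annotation). Capitals mark matches to the consensus, and adjoining matches overlap in *Nfkb2*.
*Nfkb2*: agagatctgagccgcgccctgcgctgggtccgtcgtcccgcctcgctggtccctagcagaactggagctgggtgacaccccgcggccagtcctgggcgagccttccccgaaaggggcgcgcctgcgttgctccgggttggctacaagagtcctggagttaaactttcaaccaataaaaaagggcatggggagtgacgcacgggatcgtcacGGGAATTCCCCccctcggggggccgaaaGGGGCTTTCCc
*Nfkbia*: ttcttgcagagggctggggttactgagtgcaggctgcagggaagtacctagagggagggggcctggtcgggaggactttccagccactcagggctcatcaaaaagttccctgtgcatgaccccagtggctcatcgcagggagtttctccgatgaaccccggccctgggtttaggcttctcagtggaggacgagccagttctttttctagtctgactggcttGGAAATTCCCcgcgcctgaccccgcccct
*Tnfaip3*: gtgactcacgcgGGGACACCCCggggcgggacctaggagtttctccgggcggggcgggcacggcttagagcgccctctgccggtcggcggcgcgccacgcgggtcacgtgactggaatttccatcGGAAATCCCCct
In *Tnfaip3* the matches lie 125 to 116 and 12 to 3 bases before the start, and in *Nfkbia* 29 to 20 bases before it. The *Tnfaip3* window also holds 1 AP-1 motif (TGANTCA, which reads alike on both strands apart from its central base, 7.81% of windows), which does not overlap them. No member window but 1 of the 3 of *Nfkbid* holds the CRE motif TGACGTCA, which 1.79% of windows hold. A match is a run of letters, and no binding was measured.

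**Figure D1:**
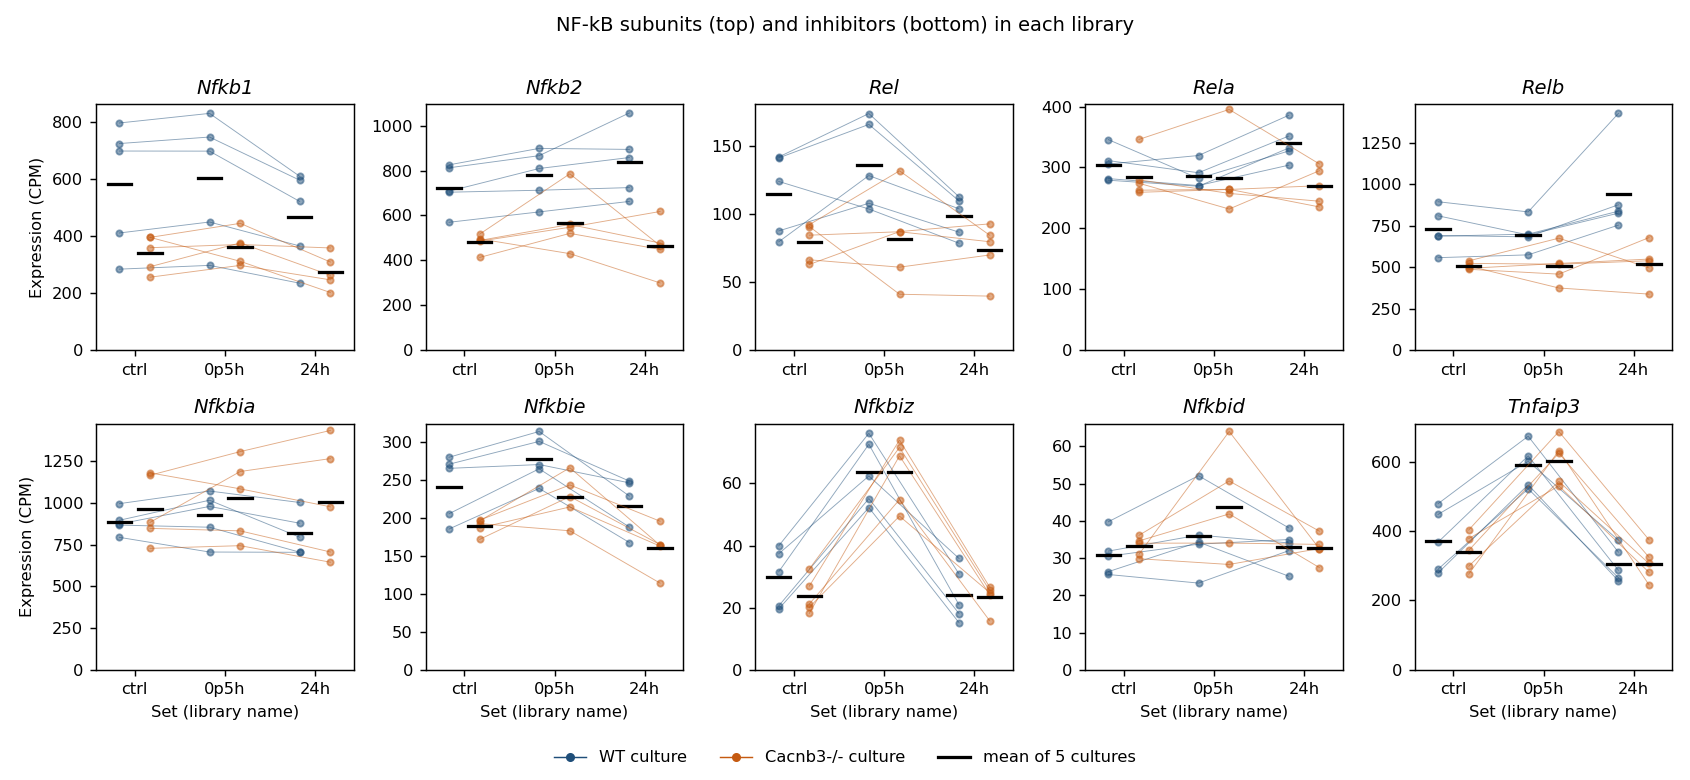
Expression of each member in all 30 libraries, in CPM against set, with WT cultures in blue and Cacnb3-/- cultures in orange, lines joining the libraries of 1 culture and black bars the mean of 5 cultures. *Nfkbiz* and *Tnfaip3* stand highest in 0p5h in both genotypes, and the points of *Nfkb2* and *Relb* lie lower in Cacnb3-/- than in WT in ctrl and 24h.

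Per kilobase of exon, the only scale on which genes are compared here, *Nfkbia*, the gene of IkBα, was the highest member, and its level in ctrl was 561 ± 46.1 CPM per kb in WT and 609 ± 128 in Cacnb3-/- BMDCs (SD, n = 5). In WT ctrl it was followed by *Nfkb2* (220 ± 31.3 CPM per kb), *Relb* (188 ± 33.2), *Nfkb1* (122 ± 46.6), *Rela* (112 ± 9.93), *Nfkbie* (99.7 ± 17.7), *Tnfaip3* (51.6 ± 12.5), *Rel* (41.0 ± 10.5), *Nfkbid* (13.1 ± 2.42) and *Nfkbiz* (5.93 ± 1.87). Neighbours in this order overlapped in their ranges from *Nfkb2* through *Nfkbie*, and so did *Tnfaip3* and *Rel*. *Nfkbia* stood apart above, and *Nfkbid* and *Nfkbiz* stood apart below. In Cacnb3-/- ctrl *Nfkb1* stood lower in the order, at 71.3 ± 13.2 CPM per kb, after *Rela* (105 ± 13.1) and *Nfkbie* (78.0 ± 4.28), and its range overlapped that of *Nfkbie*.

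**Figure D2:**
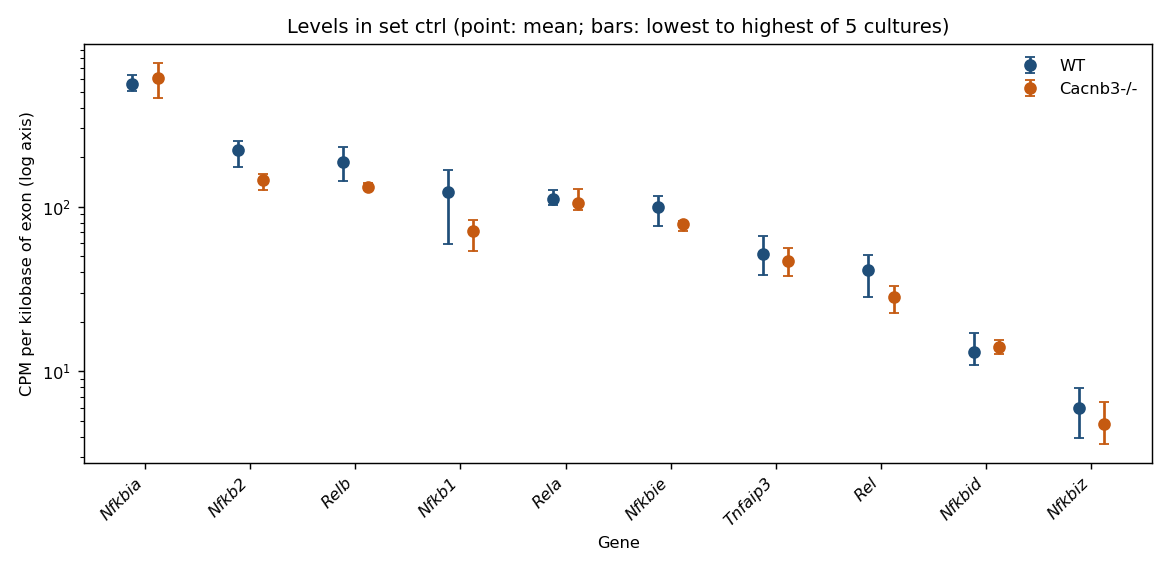
Level of each member in ctrl, in CPM per kilobase of exon on a log axis, as the mean (point) and the lowest to highest of 5 cultures (bars) in WT (blue) and Cacnb3-/- (orange). *Nfkbia* lies highest at 561 in WT, and *Nfkbiz* lowest at 5.93.

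The comparison of ctrl with 0p5h asks, by library name and the labels' protocol, which genes differ directly after the 30 min ATP pulse. The study instead places the early harvest 30 min after the pulse. *Nfkbiz* (ENSMUSG00000035356, chr16:55811375-55838899, minus strand), which encodes the nuclear IkBζ that tunes NF-kB target genes, was higher in 0p5h than in ctrl in all 10 cultures. In WT ctrl it read 39.9, 20.6, 37.3, 31.5 and 19.6 CPM in cultures p974s846, p974s850, p974s855, p974s856 and p974s864, and in WT 0p5h 76.1, 55.1, 62.4, 72.6 and 52.2 CPM in the same order. In Cacnb3-/- ctrl it read 32.5, 20.2, 18.2, 26.9 and 21.2 CPM in cultures p974s843, p974s851, p974s852, p974s853 and p974s865, and in Cacnb3-/- 0p5h 71.6, 49.5, 68.9, 74.0 and 54.8 CPM. Every 0p5h library of a genotype lay above each of its ctrl libraries. In Cacnb3-/- BMDCs *Nfkbiz* rose by 1.41 on the log2 scale, 2.65-fold (SE 0.18, adjusted p = 0.0044, edgeR's quasi-likelihood test, Benjamini-Hochberg adjusted). In WT its log2 fold change was 1.11 (SE 0.21, adjusted p = 0.0715 from the same test), and with a replicate block for culture number it was 1.14 (SE 0.09, adjusted p = 3.96e-05). In bulk RNA a change in the share of cells that express a gene and a change in RNA per cell cannot be told apart.

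*Tnfaip3* (ENSMUSG00000019850, chr10:19000910-19015657, minus strand), which encodes the ubiquitin-editing enzyme A20 and is a feedback inhibitor upstream of IKK, followed the same course at a smaller fold. In WT ctrl it read 448, 279, 478, 368 and 290 CPM in the culture order above, and in WT 0p5h 601, 533, 673, 616 and 521 CPM. In Cacnb3-/- ctrl it read 378, 299, 344, 403 and 276 CPM, and in Cacnb3-/- 0p5h 530, 543, 624, 686 and 631.5 CPM. Ranges of ctrl and 0p5h again did not overlap in either genotype. The log2 fold change was 0.81 in Cacnb3-/- (SE 0.14, adjusted p = 0.0327, edgeR) and 0.67 in WT (SE 0.16, adjusted p = 0.178, edgeR), where the replicate block gave 0.70 (SE 0.07, adjusted p = 1.77e-04).

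The call rule asked for an adjusted p under 0.05 and at least a 2-fold change. By it 1 of 10 members, *Nfkbiz*, was called from ctrl to 0p5h in Cacnb3-/-, beside 0.290% of all genes tested, and 0 of 10 in WT, beside 0.176% of all genes, where the replicate block called 1 member beside 0.581% of genes. Without the fold minimum 2 members passed in Cacnb3-/- (0.384% of genes) and 0 in WT (0.290% of genes). By adjusted p alone, DESeq2 put *Nfkbiz* and *Tnfaip3* under 0.05 in both genotypes, beside 122 of 15845 genes in WT and 92 of 13874 in Cacnb3-/-. An edgeR fit of all 30 libraries did so too, beside 44 and 64 of 13755 genes. With the replicate block and no fold minimum 3 passed in WT, *Nfkbie*, *Nfkbiz* and *Tnfaip3*, beside 5.96% of genes, and 2 in Cacnb3-/-, *Nfkbiz* and *Tnfaip3*, beside 2.35% of genes. *Nfkbiz* and *Tnfaip3* were the 2 members higher in 0p5h with no overlap of ranges, which held for 0.741% of all genes in WT and 0.761% in Cacnb3-/-. Leaving out any 1 culture kept the call of *Nfkbiz* in Cacnb3-/- (adjusted p from 0.0101 to 0.0449, edgeR). *Tnfaip3* in Cacnb3-/- missed an adjusted p of 0.05 without any 1 of them in the fit without the block (log2 fold change from 0.74 to 0.90, adjusted p from 0.105 to 0.278, edgeR), and passed in all 5 such fits with the block (0.74 to 0.91, adjusted p up to 0.0126). *Nfkbie* in WT passed under the block in 1 of 5 fits that left out a culture, the one without p974s846 (adjusted p up to 0.13 in the others, edgeR).

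None of the other 8 members passed edgeR's test from ctrl to 0p5h without the block, and their ranges overlapped. *Rel*, the gene of c-Rel, was higher in 0p5h in 4 of 5 WT and 3 of 5 Cacnb3-/- cultures, with within-culture log2 changes from -0.26 to 0.69 and from -1.14 to 0.52. *Nfkbie*, the gene of IkBε, was higher in 0p5h in 5 of 5 WT and 4 of 5 Cacnb3-/- cultures, with 242 ± 42.9 and 278 ± 29.9 CPM in WT ctrl and 0p5h (SD, n = 5) and 189 ± 10.4 and 227 ± 31.2 CPM in Cacnb3-/-. In WT its log2 fold change was 0.21 (SE 0.13, adjusted p = 1, edgeR), and under the replicate block 0.22 (SE 0.05, adjusted p = 0.0321). *Nfkbia* had 885 ± 72.7 and 925 ± 146 CPM in WT ctrl and 0p5h, and 961 ± 202 and 1031 ± 238 CPM in Cacnb3-/-, and was higher in 0p5h in 3 of 5 cultures of each genotype. *Nfkbid*, the gene of the nuclear inhibitor IkBNS, ranged from 23.3 to 52.1 CPM in WT 0p5h and from 28.3 to 64.0 CPM in Cacnb3-/- 0p5h, around ctrl levels of 30.8 ± 5.67 and 33.1 ± 2.61 CPM, and 1 Cacnb3-/- culture, p974s865, was 1.04 higher in 0p5h on the log2 scale. *Rela* and *Relb* were higher in 0p5h in 1 and 2 of 5 WT cultures and in 3 and 2 of 5 Cacnb3-/- cultures. *Nfkb2* was higher in 5 of 5 WT cultures by only 0.02 to 0.19 on the log2 scale, and *Nfkb1* in 4 of 5 cultures of each genotype.

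**Figure D3:**
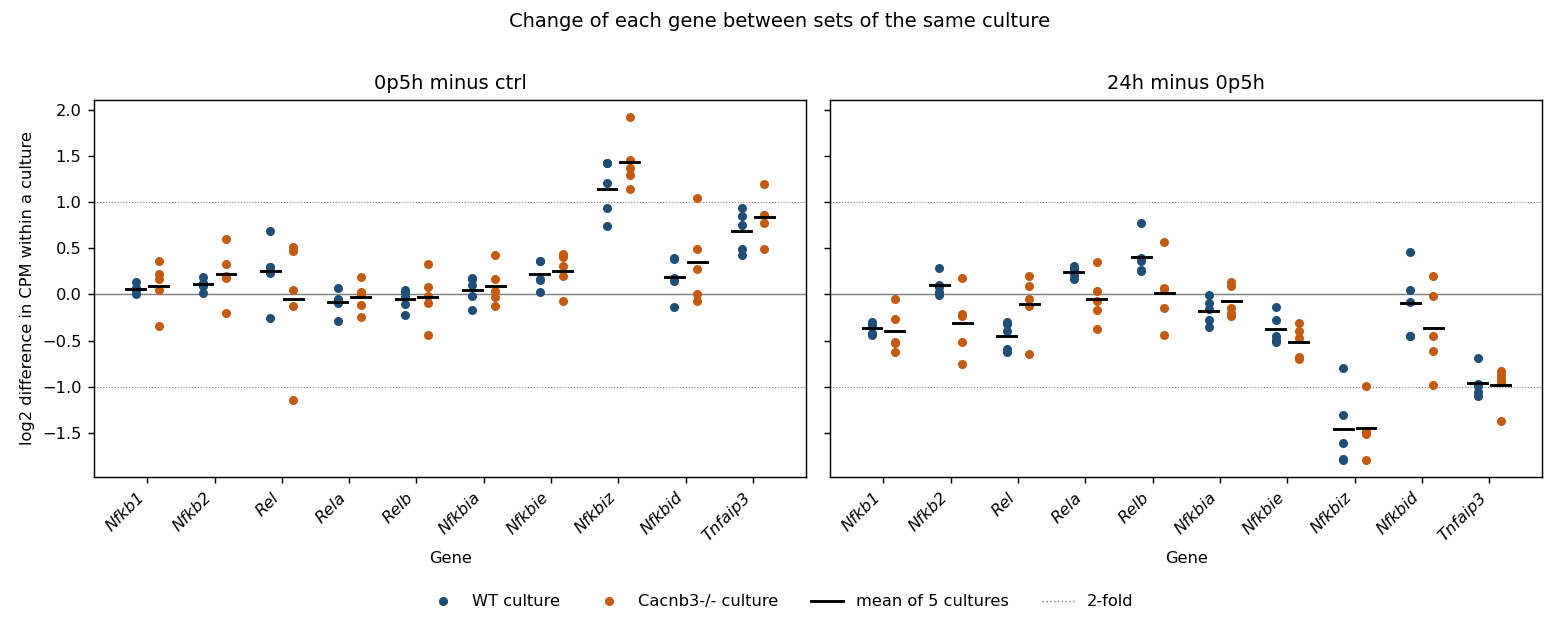
Difference in log2 CPM between 2 libraries of the same culture for each member, 0p5h minus ctrl on the left and 24h minus 0p5h on the right, with 1 point per culture, black bars for the mean of 5 and dotted lines at 2-fold. *Nfkbiz* and *Tnfaip3* lie above 0 in all 10 cultures on the left and below 0 in all 10 on the right.

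From 0p5h to 24h, *Nfkbiz* and *Tnfaip3* fell in both genotypes, to levels whose ranges overlapped those of ctrl. *Nfkbiz* read 30.9, 18.1, 35.8, 20.9 and 15.2 CPM in WT 24h and 25.5, 24.9, 24.2, 26.6 and 15.8 CPM in Cacnb3-/- 24h. In log2 terms it fell by 1.39 in WT cultures (SE 0.23, adjusted p = 0.0125) and by 1.44 in Cacnb3-/- (SE 0.17, adjusted p = 0.00213, edgeR for both). The WT call was lost without culture p974s846 (adjusted p = 0.0564), p974s850 (0.0803) or p974s856 (0.109, log2 fold change -1.30, edgeR). With the replicate block it was -1.44 in WT (SE 0.14, adjusted p = 4.73e-04, edgeR), and the call then held in all 5 fits that left out a culture (adjusted p up to 0.00365).

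*Tnfaip3* read 374, 257, 339, 287 and 265 CPM in WT 24h and 281, 306, 324, 375 and 245 CPM in Cacnb3-/- 24h, below each 0p5h library of its genotype. In log2 terms it fell by 0.95 in WT cultures (SE 0.13, adjusted p = 0.00379) and by 0.97 in Cacnb3-/- (SE 0.15, adjusted p = 0.00915, edgeR for both), just short of 2-fold. It passed the call rule in WT without culture p974s846 (-1.03, adjusted p = 0.0171) and in Cacnb3-/- once the trend of counts with GC content was removed (-1.04, adjusted p = 0.00379, edgeR for both). In Cacnb3-/- it missed an adjusted p of 0.05 without culture p974s851 in the fit without the block (-1.01, adjusted p = 0.0966, edgeR), while with the block it passed in all 5 fits that left out a culture (-1.02 to -0.89, adjusted p up to 0.00135) and was past 2-fold in 2 of them. Neither gene's range overlapped between 0p5h and 24h, which for lower levels held for 2.17% of genes in WT and 1.83% in Cacnb3-/-.

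By the call rule 1 of 10 members was called from 0p5h to 24h in each genotype, beside 0.639% of all genes in WT and 0.660% in Cacnb3-/-, and without the fold minimum 2 of 10 in each, beside 1.19% and 0.880% of genes. With the replicate block and no fold minimum 7 members passed in WT, beside 11.3% of genes. *Nfkb1* (-0.36, adjusted p = 0.0102), *Rel* (-0.44, adjusted p = 0.00699) and *Nfkbie* (-0.37, adjusted p = 0.0166) were lower there, as were *Nfkbiz* and *Tnfaip3*, while *Rela* (0.25, adjusted p = 0.0372) and *Relb* (0.41, adjusted p = 0.0229, edgeR log2 fold changes) were higher. Leaving out a culture under this setting left 4 members in WT without p974s846 (beside 721 of 12876 genes), p974s855 (790 of 12848) or p974s864 (807 of 12759). It left 5 without p974s850 (1106 of 12923) and 7 without p974s856 (1744 of 12935). *Rel*, *Nfkbiz* and *Tnfaip3* passed in all 5 of these fits, *Nfkb1* and *Nfkbie* in 3, *Relb* in 2 and *Rela* in 1. In Cacnb3-/- 4 passed under the same setting, beside 28.6% of genes, and all were lower, *Nfkb1* (-0.38, adjusted p = 0.0160) and *Nfkbie* (-0.50, adjusted p = 0.00292, edgeR) besides *Nfkbiz* and *Tnfaip3*. *Nfkb1* missed the threshold there without p974s843 (adjusted p = 0.0801, edgeR). With the trend with GC content removed under the same block 4 members passed in Cacnb3-/-, beside 24.0% of genes, but not the same 4. *Nfkb1* and *Nfkbie* in Cacnb3-/- no longer passed (adjusted p = 0.119 and 0.0594, edgeR), while *Rel* was lower (-0.29, adjusted p = 0.0240, edgeR), against -0.10 without that step, and *Rela* was higher (0.27, adjusted p = 0.0115, edgeR), against -0.03. In WT *Relb* was higher in 24h than in 0p5h in 5 of 5 cultures, from 698 ± 91.9 to 944 ± 273 CPM (SD, n = 5), and in Cacnb3-/- in 3 of 5, from 511 ± 110 to 521 ± 122 CPM.

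From ctrl to 24h no member was called in either genotype, beside 0.0152% of all genes in WT and 0% in Cacnb3-/-. Their ranges overlapped between these sets for all 10 members. *Nfkb1* was lower in 24h in all 10 cultures, at 584 ± 223 and 466 ± 161 CPM in WT ctrl and 24h and 340 ± 63.0 and 276 ± 60.0 CPM in Cacnb3-/- (SD, n = 5). Its log2 fold change in WT was -0.31 (SE 0.31, adjusted p = 0.810), and with the replicate block -0.30 (SE 0.08, adjusted p = 0.0676, edgeR for both). *Nfkbie* was also lower in all 10 cultures. *Nfkb2* and *Relb* were higher in 24h in 5 of 5 WT cultures, and *Relb* had a log2 fold change of 0.36 with the block (SE 0.11, adjusted p = 0.0773, edgeR). With the GC trend removed under the block *Nfkb1* (-0.32, adjusted p = 0.0421) and *Relb* (0.34, adjusted p = 0.0398, edgeR) passed in WT with no fold minimum, beside 9.35% of genes.

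The comparison of genotypes in each set asks which genes differ between cultures labelled Cacnb3-/- and WT, where genotype and substrain cannot be told apart. In all 3 sets the means of *Nfkb1*, *Nfkb2*, *Relb*, *Rel*, *Rela* and *Nfkbie* were lower in cultures labelled Cacnb3-/-, by less than 2-fold. None of them passed the main test. *Nfkb2* (ENSMUSG00000025225, chr19:46304737-46312090, plus strand) read 708, 704, 825, 812 and 570 CPM in WT ctrl and 496, 489, 413, 517 and 486 CPM in Cacnb3-/- ctrl. In 24h it read 858, 724, 894, 1056 and 663 CPM in WT and 300.2, 478, 449, 466 and 618 CPM in Cacnb3-/-. The genotypes did not overlap in these 2 sets. In 0p5h Cacnb3-/- culture p974s853, at 785 CPM, lay among the WT values of 616 to 899 CPM. The log2 fold change of Cacnb3-/- over WT was -0.57 in ctrl (SE 0.13, adjusted p = 0.243) and -0.85 in 24h (SE 0.19, adjusted p = 0.0515, edgeR for both).

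*Relb* (ENSMUSG00000002983, chr7:19606217-19629438, minus strand), whose product pairs with p52 in the non-canonical pathway, gave the same picture. It read 687.5, 810, 691, 895 and 558 CPM in WT ctrl against 508, 524, 494, 539 and 488 CPM in Cacnb3-/- ctrl, and 838, 826, 877, 1427 and 754 CPM in WT 24h against 339, 540, 550, 496 and 679 CPM in Cacnb3-/- 24h. Genotypes did not overlap in either set, and in 0p5h the WT range of 575 to 834 CPM overlapped the Cacnb3-/- range of 376 to 676 CPM. Its log2 fold change was -0.49 in ctrl (SE 0.14, adjusted p = 0.243) and -0.85 in 24h (SE 0.22, adjusted p = 0.0515, edgeR for both). With no overlap and a lower level in Cacnb3-/-, *Nfkb2* and *Relb* stood beside 1.27% of all genes in ctrl and 3.79% in 24h. The sets share cultures, so they are not independent.

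*Nfkb1* (ENSMUSG00000028163, chr3:135584655-135691547, minus strand) spread widely among WT cultures. In ctrl it read 699, 412, 797, 725 and 285 CPM in WT and 396, 360, 257, 293 and 396 CPM in Cacnb3-/-, so that WT cultures p974s850 and p974s864 lay among or near the Cacnb3-/- values. The same WT cultures were the lowest of their genotype in 0p5h (450 and 298 CPM) and in 24h (366 and 236 CPM). Its log2 fold change was -0.75 in ctrl (SE 0.26, adjusted p = 0.249) and -0.74 in 24h (SE 0.25, adjusted p = 0.0620, edgeR for both). *Rela*, the gene of p65, had 305 ± 27 CPM in WT and 284 ± 35.5 CPM in Cacnb3-/- ctrl (SD, n = 5), and 340 ± 30.6 and 270 ± 30.6 CPM in 24h. In 0p5h its levels were close, at 287 ± 20.6 CPM in WT and 283 ± 64.4 CPM in Cacnb3-/-.

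By the call rule 0 of 10 members were called between genotypes in any set, beside 0% of all genes in ctrl, 0p5h and 24h. DESeq2 with no fold minimum passed *Nfkb2* and *Relb* in ctrl (adjusted p = 0.00324 and 0.0280), beside 1.73% of genes, and *Nfkb1*, *Nfkb2*, *Rela* and *Relb* in 24h (adjusted p = 0.0257, 0.00385, 0.0367 and 0.00663), beside 26.4% of genes. In 24h an edgeR fit of all 30 libraries also put *Nfkb1*, *Nfkb2*, *Rela*, *Relb* and *Nfkbie* under an adjusted p of 0.05 (0.0410, 0.00432, 0.0401, 0.00432 and 0.0236), beside 29% of genes, and edgeR with no filter on low counts put *Nfkb2* and *Relb* under it (0.0351 and 0.0364), beside 4.89% of genes. With edgeR on the 10 libraries of a set and the filter, *Nfkb1*, *Nfkb2* and *Relb* reached an adjusted p of 0.0361, 0.0227 and 0.0392 in ctrl and 0.0377 each in 24h without WT culture p974s864, and of 0.0453, 0.00799 and 0.0107 in 24h without Cacnb3-/- culture p974s865. Removing the GC trend of the counts moved the log2 fold change in 24h to -0.41 for *Nfkb2* (adjusted p = 0.137), -0.53 for *Relb* (0.134) and -0.48 for *Nfkb1* (0.206, edgeR for all). With the sequencing lane as a covariate it was -0.78, -0.74 and -0.67 in the same order (adjusted p from 0.0891 to 0.122, edgeR).

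Depth and the levels of cell markers are given beside these differences. Libraries of WT ctrl had a median of 25364047 counts and those of Cacnb3-/- ctrl 16202000, in 0p5h the medians were 20360908 and 18729574, and in 24h 19915605 and 11986891. The summed CPM of the 10 dendritic cell markers ranged from 27020 to 39896 in WT ctrl and from 17856 to 31817 in Cacnb3-/- ctrl, from 27966 to 40086 and from 21592 to 37604 in 0p5h, and from 21290 to 36354 and from 16300 to 27660 in 24h. Of these markers only *Ccr7*, a chemokine receptor of mature dendritic cells, is given singly, so its values do not stand for the list. *Ccr7* had 4332 ± 825 and 2882 ± 232 CPM in WT and Cacnb3-/- ctrl (SD, n = 5). It had 5029 ± 818 and 3509 ± 698 CPM in 0p5h, and 5141 ± 970 and 2927 ± 835 CPM in 24h. Its ranges overlapped between genotypes in ctrl and 0p5h. In 24h the lowest WT library, at 3878 CPM, lay just above the highest Cacnb3-/- library, at 3869 CPM. Such a lower level without overlap held for 3.79% of genes. The 9 macrophage-like markers, all at a median of at least 1 CPM, summed to 691 to 1724 CPM in WT ctrl and 811 to 2381 CPM in Cacnb3-/- ctrl, and the 9 granulocyte markers to 130 to 512 and 207 to 440 CPM, with none at 0 in all libraries of a group. The ranges of these sums overlapped between genotypes, and differences in the sums were not tested. The part of depth and of these cells in the lower subunit levels was not tested.

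**Figure D4:**
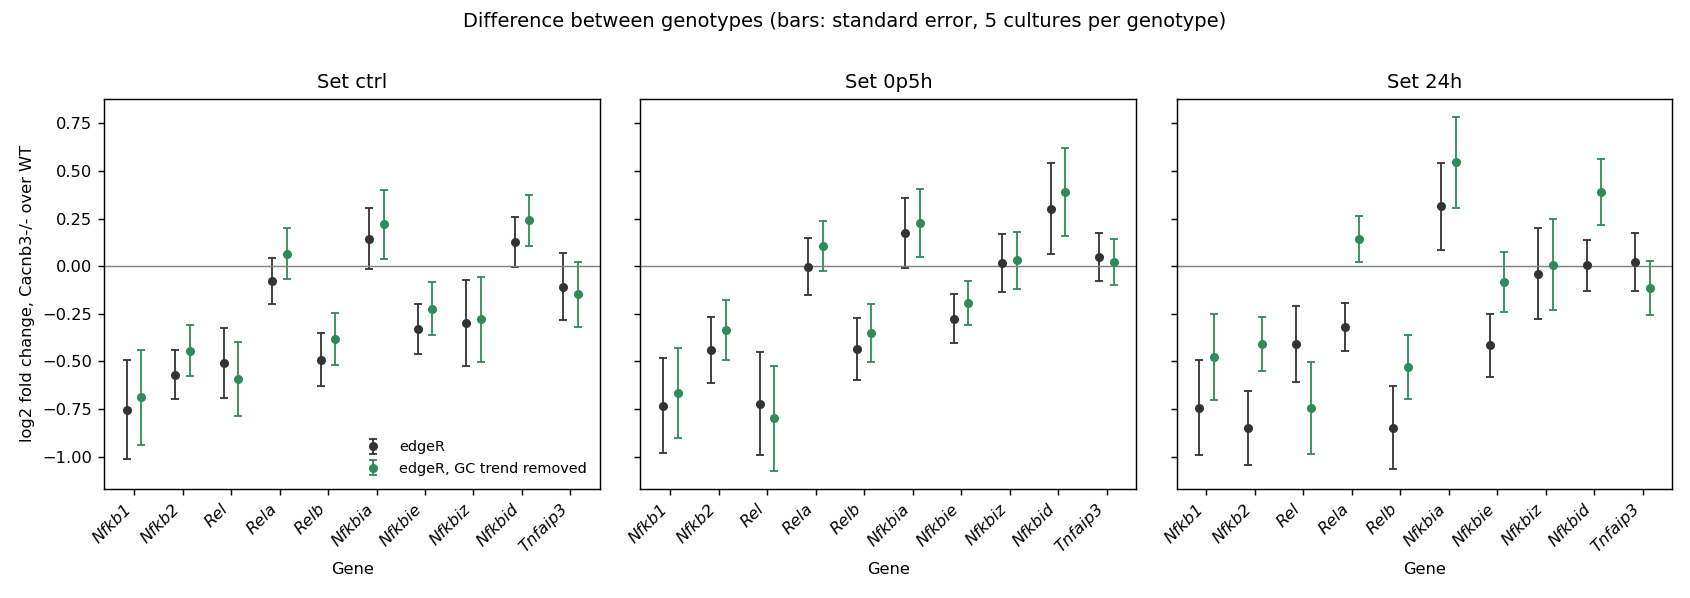
Log2 fold change of Cacnb3-/- over WT for each member in ctrl, 0p5h and 24h, as edgeR estimates with standard errors derived from the test's F statistic (5 cultures per genotype), without (black) and with (green) the GC trend of the counts removed. *Nfkb2* moved from -0.85 to -0.41 and *Rela* from -0.32 to 0.14 in 24h.

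An interaction term asked whether a member changed by a different amount in each genotype. No member was called, beside 0% of all genes for each pair of sets. For *Nfkbiz* from ctrl to 0p5h the difference in log2 fold change, Cacnb3-/- minus WT, was 0.31 (SE 0.28, adjusted p = 1, edgeR), and for *Tnfaip3* it was 0.15 (SE 0.21, adjusted p = 1, edgeR). From 0p5h to 24h these differences were -0.05 (SE 0.29) and -0.02 (SE 0.19). *Nfkb2* and *Relb* had the widest differences from 0p5h to 24h among these 4 genes, -0.40 (SE 0.26, adjusted p = 0.688) and -0.41 (SE 0.28, adjusted p = 0.690, edgeR for both). Standard errors of this size leave room for differences in either direction.

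Other genes of the pathway were read from 5 lists: 28 ligands and receptors, 25 adaptors and ubiquitin enzymes, 11 kinases, 19 other inhibitors and 43 target genes. The lists were chosen with earlier results of these data known, so their calls and medians describe the lists and do not test them. From ctrl to 0p5h every call was on the target gene list, and the cytokine gene *Il1b* is on the ligand list too. In WT 2 of 40 target genes tested were called, both higher, beside 23 of 13085 genes called, all higher. The list's median log2 fold change there was 0.20, against 0.01 over all genes. In Cacnb3-/- 4 of 40 were called, all higher, beside 36 of 12750 genes called higher and 1 lower. The list's median there was 0.28, against -0.01 over all genes. *Junb* (1.37, adjusted p = 0.0225) and *Cxcl2*, a neutrophil chemokine (1.01, adjusted p = 0.0173), rose in WT, and *Junb* also in Cacnb3-/- (1.57, adjusted p = 0.00291). *Ptgs2*, the inducible prostaglandin synthase (4.24, adjusted p = 0.00142), *Ccl4*, a chemokine (2.18, adjusted p = 0.0311), and *Il1b* (2.17, adjusted p = 0.0176) rose in Cacnb3-/- BMDCs, all by edgeR log2 fold change. In the other genotype the same genes had values in the same direction that missed the threshold, namely 3.32 for *Ptgs2* (adjusted p = 0.176), 0.85 for *Ccl4* (0.653) and 1.40 for *Il1b* (0.820) in WT, and 1.41 for *Cxcl2* in Cacnb3-/- (0.71, edgeR for all), so no call here is shown to differ between genotypes. *Tnf*, on the target and ligand lists, was not called and went the other way. Its log2 fold change was -1.70 in WT (adjusted p = 0.0571) and -1.60 in Cacnb3-/- (0.457, edgeR for both). In WT its ranges, 22.4 to 37.5 CPM in ctrl and 3.52 to 13.7 CPM in 0p5h, did not overlap. Such a lower level held for 136 of 13085 genes. In Cacnb3-/- the ranges of *Tnf* overlapped. No gene of the adaptor, kinase or other inhibitor lists was called from ctrl to 0p5h, and none of any list from ctrl to 24h or between genotypes. The target list's median log2 fold change of Cacnb3-/- over WT was -0.56 in ctrl, -0.39 in 0p5h and -0.13 in 24h. Over all genes it was 0.03, 0.02 and 0.01. From ctrl to 24h the list's median was 0.36 in Cacnb3-/- and -0.0003 in WT, against -0.01 and -0.004 over all genes. These medians were not tested.

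From 0p5h to 24h, 5 of 40 target genes were called lower and 0 higher in WT, beside 76 lower and 6 higher of 12830 genes. The list's median log2 fold change was -0.29, against 0.01 over all genes. *Ptgs2* (-3.97, adjusted p = 0.0227), *Plk3*, a polo-like kinase (-1.94, adjusted p = 0.00117), and *Olr1*, a scavenger receptor (-1.64, adjusted p = 0.0317), fell most. Of the receptors, *Cd14*, the co-receptor for LPS (-2.48, adjusted p = 0.0396), and *Tlr2* (-1.22, adjusted p = 0.0260) fell in WT. In Cacnb3-/- 3 of 40 target genes were called lower and 1 higher, beside 63 lower and 21 higher of 12730 genes. The list's median was -0.19 against 0.00 over all genes. *Plk3* (-2.28, adjusted p = 0.0475), *Junb* (-1.75, adjusted p = 9.14e-04) and *Il1b* (-1.68, adjusted p = 0.0353) fell, while *Tnf*, the gene of the NF-kB-activating cytokine TNF, rose (1.92, adjusted p = 0.0296, edgeR for all). For the genes named in 1 genotype, the values in the other are given outside the naming rule. In WT *Tnf* had a log2 fold change of 1.82 (adjusted p = 0.0858) and *Il1b* of -2.09 (0.127), *Junb* was called lower there too (-1.42, adjusted p = 0.0100), and in Cacnb3-/- *Cd14* had -2.55 (0.0591), *Tlr2* -1.41 (0.265), *Olr1* -1.60 (0.207) and *Ptgs2* -1.57 (0.180, edgeR for all). *Tnf* had 5.11 ± 2.45 CPM in Cacnb3-/- 0p5h and 19.1 ± 8.07 CPM in 24h, and 15.4 ± 9.01 CPM in ctrl (SD, n = 5). Of the 14 calls named by the rule of up to 3 genes per list, *Junb* in Cacnb3-/- from 0p5h to 24h, *Plk3* in WT and *Ptgs2* in Cacnb3-/- from ctrl to 0p5h held without any 1 culture, and each of the other 11 was lost without at least 3 of 5 cultures, with adjusted p up to 0.264 (edgeR).

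Of 13754 other genes, the 3 whose log2 CPM followed *Nfkbiz* most closely over the 30 libraries, after centring within genotype, were *Osm* (Pearson r = 0.954), *Dusp1* (0.954) and the member *Tnfaip3* (0.953). The libraries share cultures and depth, so these values only describe the likeness. *Osm*, which encodes the cytokine oncostatin M, had median levels of 39.7, 214 and 30.1 CPM in WT ctrl, 0p5h and 24h and 39, 193 and 50.7 CPM in Cacnb3-/-. *Dusp1*, which encodes a phosphatase of MAP kinases, had medians of 354, 1342 and 305 CPM in WT and 203, 799 and 255 CPM in Cacnb3-/-. Among the other members, *Nfkbie* was nearest to *Nfkbiz* (r = 0.719), and *Relb* had the lowest value (-0.22).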

How the data were processed

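RNA-seq of 30 BMDC libraries was read from 1 table of raw counts deposited by the authors, made per its header with featureCounts 1.5.1 over exons taken from Ensembl 79 (GRCm38) without any option for strand, read pairs or multiple alignments, after STAR 2.4 per the submitters' processing notes. The study's methods name GRCm39 instead. Without strand, antisense reads cannot be told apart. Members lie on exons of no other gene, except 4 bases of *Nfkb2*.

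Counts were tested with edgeR 4.0.16 (quasi-likelihood, TMM, filterByExpr, Benjamini-Hochberg over all genes tested) within each comparison, in R 4.3.3. Each SE given for edgeR is the absolute log2 fold change over the square root of the test's F statistic. A call needed an adjusted p under 0.05 and at least 2-fold. CPM used TMM factors over all 30 libraries. Alternatives were DESeq2 1.42.0, its size factors in edgeR, no filter, no fold minimum, one fit of all libraries, GC trend removed, each culture left out and a replicate block by culture number. Sequencing lane and combined settings were added after seeing the data. Culture numbers were treated as pairs because the deviations of same-numbered libraries correlated above 0.1 in 29 of 30 pairs (median 0.609), the exception being Cacnb3-/- p974s843 from ctrl to 24h (0.0746). Some differently numbered libraries also passed 0.1, such as WT p974s850 ctrl with p974s864 0p5h (0.448). Cacnb3-/- p974s843 ctrl correlated more with p974s865 24h (0.399) than with its own 24h library. The limit alone therefore does not show that equal numbers mark pairs. Scripts were tested on simulated data. The members and lists were chosen with earlier results of these data known. All 10 members were named. Listed genes were named where called, up to 3 per list and comparison. The marker *Ccr7* was given outside this rule.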

Additional observations from a re-analysis of the deposited data

Results flagged for a closer look

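Of 60 groups of 5 libraries (10 members in 6 groups), 4 held a library whose gap to its nearest neighbour was large against the range of its group (Dixon's test). Chance flags about 5% of groups. *Rela* was highest in Cacnb3-/- culture p974s853, at 346 CPM in ctrl and 395 CPM in 0p5h, above the next Cacnb3-/- values of 280 and 264 CPM. *Relb* was highest in WT 24h in culture p974s856, at 1427 CPM against 877 CPM for the next. *Nfkbiz* was lowest in Cacnb3-/- 24h in culture p974s865, at 15.8 CPM against 24.2 CPM for the next. Without p974s865 the log2 fold change of *Nfkbiz* from 0p5h to 24h in Cacnb3-/- was -1.38, against -1.44 with it (edgeR).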

How the results depend on the processing

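In WT from ctrl to 0p5h, 0 members were called in edgeR, beside 23 of 13085 genes. DESeq2 called 1 (beside 51 of 15845 genes), as did edgeR with all 30 libraries in one fit (33 of 13755) and with the replicate block (76 of 13085). With the GC trend removed under that block 1 was called too (77 of 12954), and with the block and no fold minimum 3 passed (780 of 13085). From 0p5h to 24h, no fold minimum gave 2 members in each genotype in place of 1, the block with no fold minimum 7 in WT and 4 in Cacnb3-/-, and removal of the GC trend, without or with the block, 2 in Cacnb3-/-. In Cacnb3-/- from ctrl to 0p5h, 2 passed with no fold minimum, without or with the block. Between genotypes, DESeq2 with no fold minimum passed 2 in ctrl and 4 in 24h, and by adjusted p alone edgeR passed 5 in 24h with all 30 libraries in one fit and 2 with no filter on low counts. Leaving out single cultures gave 0 to 1 members in WT from 0p5h to 24h (0 without p974s850 or p974s856, and *Tnfaip3* in place of *Nfkbiz* without p974s846), 0 in each comparison without a call and 1 in both called comparisons of Cacnb3-/-. With all 5 cultures the replicate block changed no other call of a member under the call rule. With a culture left out it did, and *Nfkbiz* was then called in all 5 fits of each of the 4 comparisons with 0p5h, and *Tnfaip3* in 2 of 5 from 0p5h to 24h in Cacnb3-/- and 1 of 5 in WT. The reversed values were *Rela* between genotypes in 24h (0.14 against -0.32) and from 0p5h to 24h in Cacnb3-/- (0.26 with the GC trend removed, 0.27 with the block too, against -0.05, and from -0.1577 to 0.0477 without single cultures, the highest without p974s853), and *Rel* in the latter comparison (0.0835 with lane as a covariate against -0.14, and from -0.2226 to 0.0356 without single cultures, the highest without p974s865). None of these passed the call rule, and the cause was not tested. Each member had at least 192 counts per library, and how far counting error added to the standard errors was not tested.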
